A study of Mus musculus with 12 samples.

Results

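The genes of the TGF-beta axis described here are the ligands Tgfb1, Tgfb2 and Tgfb3, the receptors Tgfbr1 and Tgfbr2, the latency protein Ltbp1, the inhibitors Skil and Pmepa1, and the response gene Tgfbi. They were taken as every probe of the deposited array table that carries 1 of these 9 gene symbols, which gave 19 of the 56605 probes on the array and 9 of its 27306 symbols. The cells were C2C12, a mouse myoblast line derived from C3H muscle, which fuses into myotubes once it is confluent and serum is reduced. They received siControl, a negative control siRNA, or siBach1, an siRNA against the transcription repressor Bach1, and their RNA came from day 0 or day 2 of differentiation, with 3 arrays for each of the 4 conditions. All cells were transfected and grown in medium with fetal bovine serum, and differentiation was induced by a change to medium with horse serum at confluence. Day 0 is without this induction, so the day and the medium cannot be told apart. A single siRNA against Bach1 was used on the arrays, so the effect of losing Bach1 and any other effect of that siRNA cannot be told apart. The labels do not say that the 3 replicates were separate cultures, and the p-values then measure only the spread between these arrays, which may be technical.

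TGF-beta is secreted as a latent complex in which the growth factor stays bound to its propeptide, and Ltbp proteins tether this complex to the extracellular matrix until integrins, proteases or thrombospondin release it. The free ligand is bound by the type II receptor Tgfbr2, which phosphorylates the type I receptor Tgfbr1, and Tgfbr1 in turn phosphorylates Smad2 and Smad3. With Smad4 these enter the nucleus and act on target genes, some of which, such as Skil and Pmepa1, dampen the pathway. In myoblasts TGF-beta signalling is known for holding back muscle differentiation.

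The target of the siRNA was measured first. The Bach1 probe read 1.73, 1.55 and 1.78 in siControl and 0.18, -0.22 and -0.22 in siBach1 at day 0, in units of log2 signal minus the log2 of the 75th percentile of the same array, the scale used throughout. At day 2 it read 2.56, 2.55 and 2.58 in siControl and 0.57, 0.56 and 0.65 in siBach1 cells. The siRNAs did not overlap on either day, and siBach1 was lower by 3.42-fold at day 0 (limma adjusted p = 1.2e-05) and 3.91-fold at day 2 (adjusted p = 1.4e-05). An array had 47.6% to 58.9% of its probes well above background, and with 3 arrays per condition their number limits the precision of the values. The myotube markers Myog, Myh3, Ckm, Actc1, Tnnt3, Mymk and Myh8 were all well above background on every array, and their summed signal was 38.1 to 52.1 times the array's 75th percentile at day 0 and 686.0 to 1170.0 times at day 2. Of the 5 myoblast markers, 4 were above background on every array, and Myf5 was so on 2 of 3 arrays in each condition. The endothelial markers Cdh5, Kdr, Tek and Emcn, the adipocyte marker Adipoq, the macrophage marker Adgre1 and the fibroblast markers Thy1 and Col15a1 were above background on no array. Other markers of those lists were not at background: 4 of 5 macrophage genes, 2 of 6 fibroblast genes at day 0 and 4 of 6 at day 2 were above background on all 3 arrays of each condition, as were the adipocyte gene Lep and the osteoblast genes Sp7 and Alpl. Plin1, an adipocyte gene, was so at day 2, and the endothelial Pecam1 was on 3 arrays of each condition but siBach1 day 0, where it was on 2.

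Probes entered the test if some condition had all 3 of its arrays well above background, and a call means an adjusted p under 0.05 in limma over the 29664 probes so tested. Of the 19 probes, 16 were tested. The 3 others, A_55_P1960901 and A_55_P1960906 of Tgfbr1 and A_55_P2721658 of Ltbp1, were above background on no array and have no measured level. A further 3 of the tested probes were dim in at least 1 condition. Signal is compared only within a probe, since probes differ in how brightly they hybridise. Gene and probe names are those of the deposited table, and all 14 probes with a RefSeq transcript identifier matched the same symbol in RefSeq.

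Silencing Bach1 moved few of these genes, as it did few of all the probes on the array. At day 0 the type I receptor Tgfbr1 was 2.24-fold lower in siBach1 cells, and it was the 1 probe of 16 that was called, against 17.1% of all tested probes in either direction. At day 2 the inhibitor Pmepa1 was 1.52-fold lower and Tgfbr1 1.32-fold lower, and these were the 2 probes of 16 called, against 12% of all probes. No ligand probe, nor the probes of Tgfbr2, Skil, Ltbp1 and Tgfbi, was called for silencing on either day in this fit, which has no block. With replicate number or slide as a block, Tgfb2 A_51_P317640 was called higher at day 2 (limma adjusted p = 0.01 and 0.031). It was also called with quantile normalization and no block (0.34, limma adjusted p = 0.042). The median change of the 16 probes was 0.09 at day 0 and 0.06 at day 2 on the log2 scale, beside 0.09 and -0.01 for all tested probes. Arrays of siBach1 and siControl did not overlap for 4 of the 16 probes at day 0, against 37.3% of all probes, and for 3 of 16 at day 2, against 32.8%. Ltbp1 A_55_P1973036, counted at day 0, entered the test only through its siControl day 0 arrays, where it was highest. Whether silencing acted differently at day 2 than at day 0 was tested as well, and the test was passed by Tgfbr1 alone, higher, 1 probe of 16, against 4.59% of all probes (2.39% higher and 2.2% lower). Of the 16 tested probes, 1 was called with a fold change of at least 2 for silencing at day 0 and 0 at day 2, against 2.79% and 2.17% of all probes, and by 0 for the difference between days, against 1.44%.

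Differentiation moved most of them, as it did most probes on the array. From day 0 to day 2 in siControl cells 10 probes rose and 3 fell, so that 13 of 16 were called, against 53.4% of all tested probes. In siBach1 cells 10 rose and 2 fell, 12 of 16, against 56.1%. Tgfbi, counted in both, entered the test only through its day 2 arrays, where it was high, and of the 13 probes above background on all 12 arrays 12 were called in siControl and 11 in siBach1 cells. Higher calls made up 24.6% of all probes in siControl and 23.8% in siBach1 cells, and lower calls 28.7% and 32.3%. At least 2-fold calls numbered 3 in siControl (Tgfb3, Pmepa1 and Tgfbi) and 2 in siBach1 cells (Tgfb3 and Tgfbi), against 20% and 20.5% of all probes, where Tgfbi again counts only through its day 2 arrays and differed by 0.83 in siBach1 cells, under 2-fold, with normexp background correction. The median of the 16 probes was 0.49 in siControl and 0.48 in siBach1 cells, beside 0.0 and -0.07 for all tested probes. Day 0 and day 2 arrays did not overlap for 12 of the 16 probes with either siRNA, against 61.9% of all probes in siControl and 61.3% in siBach1 cells. Tgfbi is among these 12 only through its day 2 arrays as well. The 5 comparisons share arrays, so each is given by its own values. In RNA from a whole culture, fewer cells of a type and less RNA per cell cannot be told apart.

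**Figure D1:**
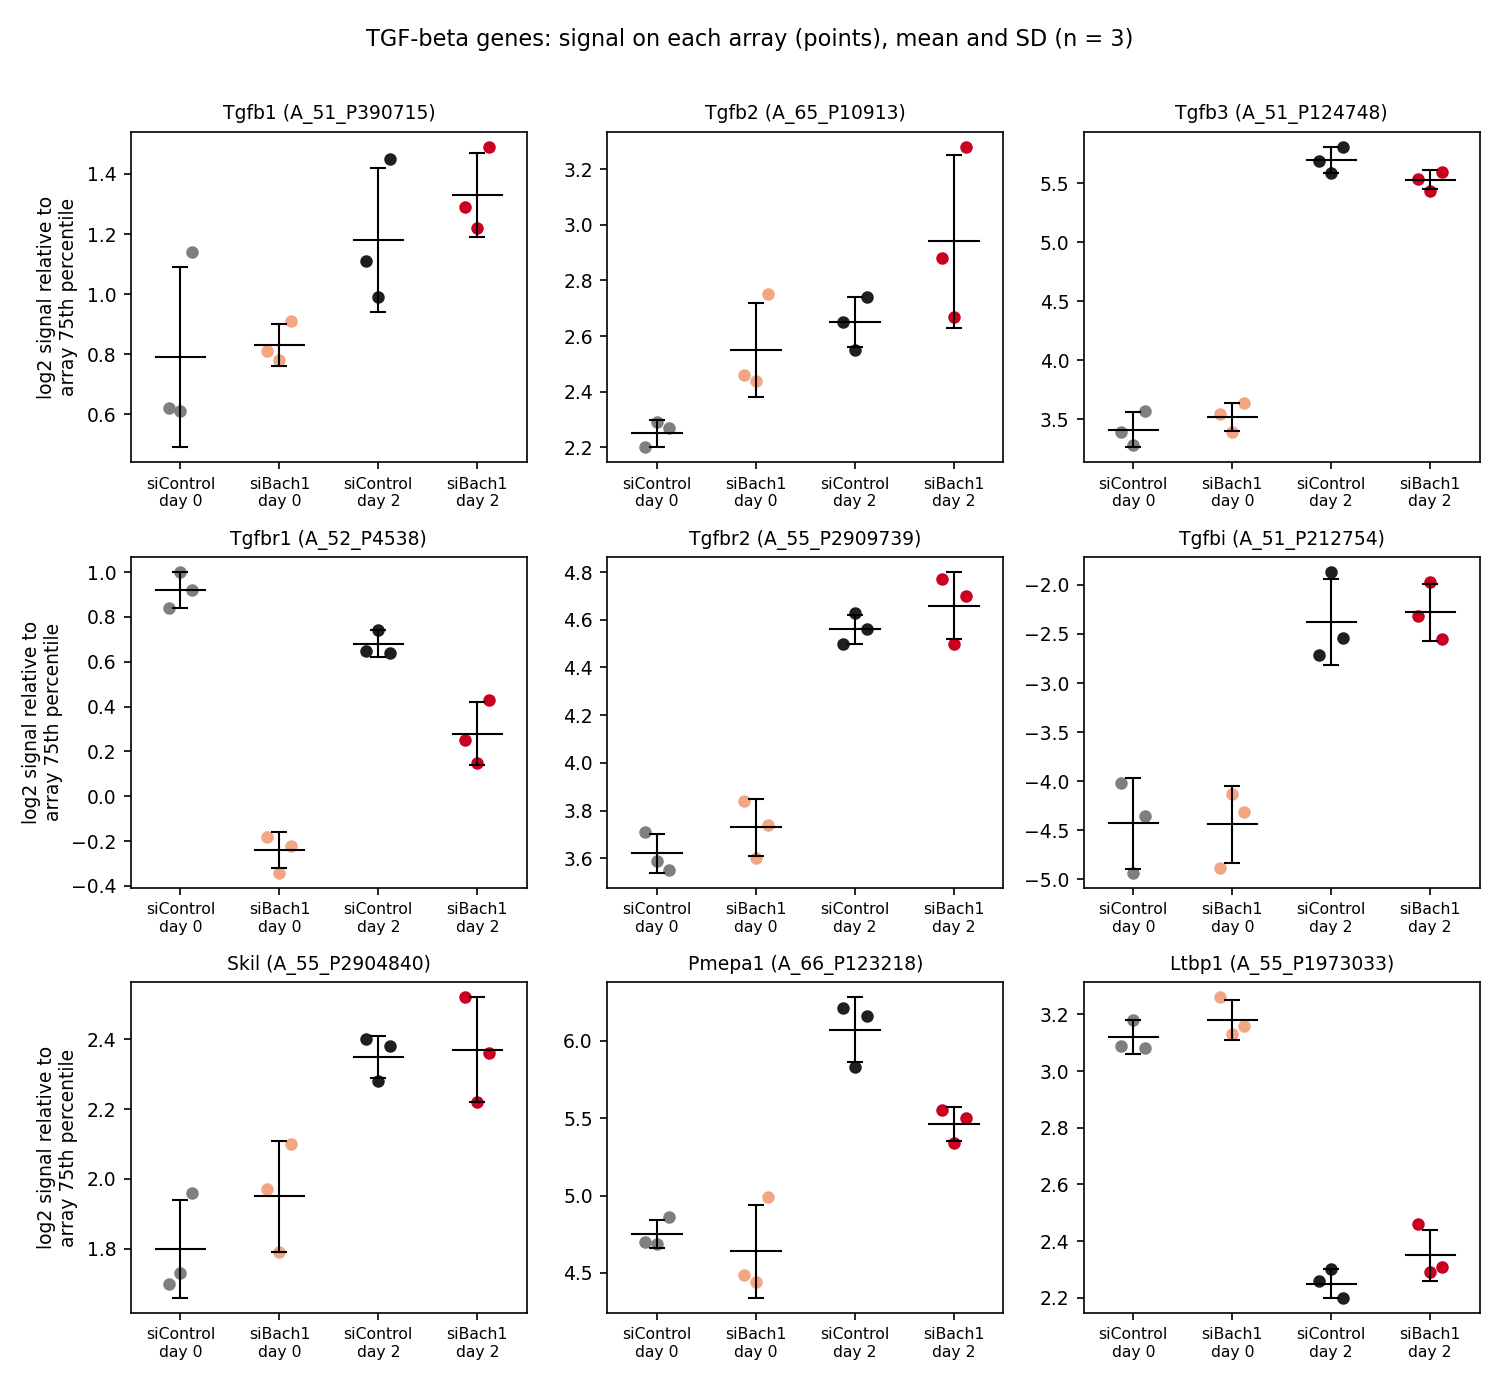
Signal of each gene on its brightest tested probe (log2, less the 75th percentile of its array, each panel on its own scale) for the 4 conditions, with 1 point per array and the mean and SD of 3 arrays. Tgfb3, Tgfbr2, Pmepa1 and Tgfbi sit higher at day 2 with both siRNAs, Ltbp1 sits lower, and Tgfbr1 is lowest in siBach1 cells at day 0.

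The stretches of 250 bases upstream of the annotated starts of the receptor genes are shown because Tgfbr1 was called lower after silencing and its partner Tgfbr2 was not called. They are from RefSeq on the mouse build GRCm38.p6, in the direction of the gene. Capitals mark matches, on either strand, to CAGAC, the core of the Smad box, or to TGACNNNGC, the core shared by the antioxidant response and Maf recognition elements that Bach1 binds together with small Maf proteins.
Tgfbr1, first start, chr4:47352972-47353221, plus strand: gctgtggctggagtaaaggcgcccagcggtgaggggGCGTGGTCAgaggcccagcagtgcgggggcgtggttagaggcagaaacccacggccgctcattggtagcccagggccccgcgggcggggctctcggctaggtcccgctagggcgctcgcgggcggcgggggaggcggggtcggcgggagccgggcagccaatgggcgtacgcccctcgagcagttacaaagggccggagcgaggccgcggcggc
Tgfbr1, second start, chr4:47385966-47386215, plus strand: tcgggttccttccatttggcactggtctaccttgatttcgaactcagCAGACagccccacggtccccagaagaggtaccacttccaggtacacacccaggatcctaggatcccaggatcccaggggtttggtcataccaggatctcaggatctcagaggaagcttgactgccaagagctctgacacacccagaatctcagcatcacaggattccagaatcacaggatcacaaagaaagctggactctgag
Tgfbr2, chr9:116175364-116175613, minus strand: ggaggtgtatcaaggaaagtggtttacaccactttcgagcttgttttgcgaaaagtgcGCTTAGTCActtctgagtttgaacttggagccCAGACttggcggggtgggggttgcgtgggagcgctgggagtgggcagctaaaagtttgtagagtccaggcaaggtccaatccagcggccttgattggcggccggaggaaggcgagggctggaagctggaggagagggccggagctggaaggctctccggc
The first Tgfbr1 stretch held 1 match to TGACNNNGC, which began 214 bases before the start, and none to CAGAC. The second held 1 match to CAGAC, 203 bases before the start. Tgfbr2 held 1 of each, TGACNNNGC at 192 and CAGAC at 160 bases before the start. Over all 32851 promoters of the same length, 42.2% held a CAGAC match and 10.2% a TGACNNNGC match, on either strand. RefSeq promoters were matched for 6 of the 9 genes (Tgfb1, Tgfb2, Tgfbr1, Tgfbr2, Tgfbi and Ltbp1), 8 starts in all, of which 6 held CAGAC and 2 held TGACNNNGC. The E-box CANNTG, the kind of sequence bound by myogenic factors such as MyoD, was matched in 3 of the 8, against 66.2% of all promoters. A match describes the letters only, and Tgfb3, Skil and Pmepa1 are named here without a promoter.

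All 3 ligands rose by day 2 in siBach1 cells, and in siControl cells each ligand probe but 1 of Tgfb1 did. None was called for silencing in the fit described above, which has no block. Tgfb3, the ligand with the largest change, read 3.39, 3.28 and 3.57 in siControl and 3.54, 3.39 and 3.64 in siBach1 cells at day 0 (probe A_51_P124748). At day 2 it read 5.69, 5.59 and 5.81 in siControl and 5.54, 5.44 and 5.60 in siBach1 cells. Every day 2 array lay above every day 0 array, while the 2 siRNAs overlapped on each day. The rise was 2.29 (SE 0.10), or 4.88-fold, in siControl (adjusted p = 9.5e-08) and 2.01, or 4.01-fold, in siBach1 cells (adjusted p = 2.2e-07). Silencing changed Tgfb3 by 0.11 at day 0 (95% interval -0.12 to 0.34) and by -0.17 at day 2 (-0.40 to 0.06), and the difference between these, -0.28 (-0.61 to 0.05), had an adjusted p of 0.31.

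Tgfb2 was measured by 2 probes. On A_51_P317640 it read 0.54, 0.46 and 0.55 in siControl and 0.76, 0.58 and 0.77 in siBach1 cells at day 0. The day 2 arrays read 1.21, 1.03 and 1.21 in siControl and 1.51, 1.29 and 1.58 in siBach1 cells. No 2 of the 4 conditions overlapped on this probe, and their order from low to high was siControl then siBach1 at day 0, and siControl then siBach1 at day 2. Between days it rose by 0.63 in siControl (1.55-fold, adjusted p = 0.00033) and by 0.76 in siBach1 cells (1.69-fold, adjusted p = 8.6e-05). The silencing differences were 0.18 at day 0 (95% interval -0.04 to 0.40, adjusted p = 0.25) and 0.31 at day 2 (0.09 to 0.53, adjusted p = 0.073), neither of them called. With replicate number as a block, the day 2 difference had an adjusted p of 0.01, and without siBach1 day 2 replicate 2 it was 0.39 with an adjusted p of 0.044. With quantile normalization it was 0.34 (adjusted p = 0.042).

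The second Tgfb2 probe, A_65_P10913, read 2.20, 2.29 and 2.27 in siControl and 2.46, 2.44 and 2.75 in siBach1 cells at day 0. At day 2 it read 2.65, 2.55 and 2.74 in siControl and 2.88, 2.67 and 3.28 in siBach1 cells. Here siBach1 lay above siControl at day 0 and the 2 overlapped at day 2, where siBach1 replicate 3 stood highest. It rose by 0.40 in siControl and by 0.39 in siBach1 cells (SE 0.15, adjusted p = 0.042 for both), and silencing differences of 0.30 (-0.03 to 0.62) and 0.29 (-0.03 to 0.62) were not called. Each rise lost its call in 9 of the 12 fits that left out 1 array, with values of 0.35 to 0.44 in siControl and 0.23 to 0.53 in siBach1 cells over all 12, and without siBach1 day 2 replicate 3 the rise in siBach1 cells was 0.23 (adjusted p = 0.14).

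Tgfb1 is the ligand most studied in fibrosis. On A_51_P390715 it read 0.62, 0.61 and 1.14 in siControl and 0.81, 0.78 and 0.91 in siBach1 at day 0, and 1.11, 0.99 and 1.45 in siControl and 1.29, 1.22 and 1.49 in siBach1 cells at day 2. The siControl day 0 replicate 3 stood at the level of the day 2 arrays, so the days overlapped in siControl and did not in siBach1 cells. The rise in siBach1 cells, 0.50 (1.42-fold, adjusted p = 0.021), was called, and that in siControl, 0.39 (95% interval 0.03 to 0.75, adjusted p = 0.063), was not. It was called in siControl with replicate number as a block (adjusted p = 0.0053), without siControl day 0 replicate 3 (0.56, adjusted p = 0.0079) and without siControl day 2 replicate 2 (0.49, adjusted p = 0.045). In siBach1 cells the call was lost without day 0 replicate 1 (0.49, adjusted p = 0.055), day 0 replicate 2 (0.48, adjusted p = 0.06) or day 2 replicate 3 (0.42, adjusted p = 0.074).

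On the other Tgfb1 probe, A_66_P135688, the readings were -1.80, -1.66 and -1.51 in siControl and -1.44, -1.70 and -1.47 in siBach1 cells at day 0. They were -1.14, -1.56 and -0.99 in siControl and -1.03, -0.97 and -0.91 in siBach1 cells at day 2. Only the siBach1 arrays separated by day. It rose by 0.43 in siControl (adjusted p = 0.029) and by 0.57 in siBach1 cells (adjusted p = 0.0067), and the siControl call was lost without siControl day 0 replicate 1 (0.36), day 0 replicate 2 (0.42), day 2 replicate 1 (0.38) or day 2 replicate 3 (0.31), with adjusted p from 0.069 to 0.11. Silencing differences on the 2 probes ran from 0.04 to 0.26, with 95% intervals that all spanned 0 and reached at most 0.58.

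Tgfbr1, the type I receptor kinase that passes the signal to Smad2 and Smad3, was the gene of this set called for silencing on both days. Its brightest probe, A_52_P4538, read 0.84, 1.00 and 0.92 in siControl and -0.18, -0.34 and -0.22 in siBach1 cells at day 0. At day 2 it read 0.65, 0.74 and 0.64 in siControl and 0.25, 0.15 and 0.43 in siBach1 cells. The 4 conditions did not overlap, and rose in the order siBach1 day 0, siBach1 day 2, siControl day 2 and siControl day 0. The silencing change at day 0 was -1.16 (SE 0.09, 95% interval -1.37 to -0.96, adjusted p = 3.6e-05). The change at day 2 was -0.40 (SE 0.09, 95% interval -0.61 to -0.19, adjusted p = 0.021).

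The 2 siRNAs also took Tgfbr1 in opposite directions over time. It fell by 0.24 in siControl cells (1.18-fold lower, adjusted p = 0.047) and rose by 0.52 in siBach1 cells (1.43-fold higher, adjusted p = 0.00072). The silencing change at day 2 minus that at day 0 was 0.77 (SE 0.13, 95% interval 0.47 to 1.06, adjusted p = 0.015). Within the slides the day 0 change was -1.18 on the first (replicates 1 and 2) and -1.14 on the second (replicate 3), and the day 2 change -0.50 and -0.21. The day 2 call was lost without siControl day 2 replicate 1 (-0.41, adjusted p = 0.055), siBach1 day 2 replicate 1 (-0.39, adjusted p = 0.075), siControl day 2 replicate 2 (-0.37, adjusted p = 0.058) or siBach1 day 2 replicate 2 (-0.33, adjusted p = 0.073). The fall in siControl cells was lost in 10 of the 12 fits that left out 1 array, with values of -0.29 to -0.20 over all 12. The day 0 change and the rise in siBach1 cells were called in each of those 12 fits.

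A second probe for Tgfbr1, A_51_P280137, was dim and gave no call. It was well above background on 2 of 3 siControl and 1 of 3 siBach1 arrays at day 0, and on 3 and 2 of 3 at day 2. It read -3.98, -4.46 and -3.28 in siControl and -4.48, -4.48 and -3.96 in siBach1 at day 0, and -3.52, -3.85 and -3.90 against -3.83, -4.15 and -3.55 at day 2. The 4 conditions overlapped. Its day 0 difference of -0.40 had a 95% interval of -1.03 to 0.22 (adjusted p = 0.37), and its day 2 difference of -0.08 one of -0.71 to 0.54 (adjusted p = 0.89), so the fall on the bright probe rests on that 1 probe.

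**Figure D2:**
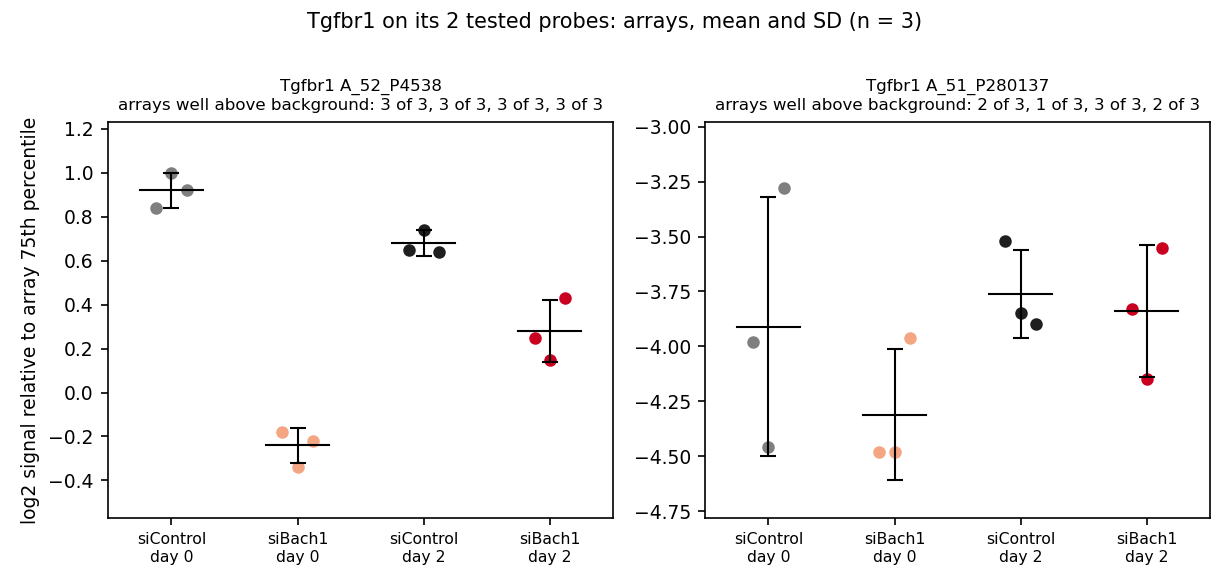
The 2 tested Tgfbr1 probes (log2, less the 75th percentile of its array, 2 panels of equal height in log2 units), with 1 point per array and the mean and SD of 3 arrays. On A_52_P4538 the 4 conditions are apart, and on the dim probe A_51_P280137 they overlap.

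Tgfbr2, the type II receptor that binds the ligand first, rose between days with both siRNAs and was not called for silencing. Its probe A_55_P2909739 read 3.71, 3.59 and 3.55 in siControl and 3.84, 3.6 and 3.74 in siBach1 at day 0, and 4.50, 4.63 and 4.56 in siControl and 4.77, 4.50 and 4.70 in siBach1 cells at day 2. Every day 2 array lay above every day 0 array, and the siRNAs overlapped on both days. It rose by 0.95 in siControl (1.93-fold, adjusted p = 1.8e-05) and by 0.93 in siBach1 cells (1.91-fold, adjusted p = 1.9e-05). Silencing differences were 0.11 at day 0 (95% interval -0.11 to 0.33) and 0.09 at day 2 (-0.12 to 0.31), and their difference was -0.01 (-0.32 to 0.29).

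Ltbp1, which binds the latent ligand to the matrix, was the gene that fell with differentiation under both siRNAs, on 2 of its 3 tested probes. On A_55_P1973033 it read 3.09, 3.18 and 3.08 in siControl and 3.26, 3.13 and 3.16 in siBach1 at day 0, and 2.26, 2.30 and 2.20 against 2.46, 2.29 and 2.31 at day 2. The days were apart and the siRNAs overlapped. The fall was 1.82-fold in siControl (log2 change -0.86, SE 0.08, adjusted p = 6.9e-06) and 1.78-fold in siBach1 cells (-0.83, adjusted p = 8.6e-06). On A_55_P2729878 it read -2.12, -2.07 and -2.0 in siControl and -2.01, -2.14 and -2.27 in siBach1 at day 0, and -2.36, -3.01 and -2.97 against -2.99, -2.77 and -3.13 at day 2. This probe fell as well, by 0.72 in siControl (adjusted p = 0.0042) and by 0.83 in siBach1 cells (adjusted p = 0.0016). With normexp these changes were -0.28 and -0.47, and the siControl call was lost on slide 1 alone (-0.59, adjusted p = 0.051) and by the methods' t-test after adjustment (0.059). The silencing differences of both probes lay between -0.18 and 0.10, within intervals of -0.56 to 0.30.

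The remaining tested Ltbp1 probe, A_55_P1973036, was above background on all 3 siControl arrays at day 0 and on 1 of 3 in each other condition. It read -4.02, -4.25 and -3.37 in siControl and -4.40, -4.57 and -5.26 in siBach1 at day 0, and -3.92, -4.74 and -6.38 against -4.39, -4.51 and -5.23 at day 2. At day 0 the siBach1 arrays lay below the siControl arrays, with a difference of -0.86 and a wide interval of -2.06 to 0.33 (adjusted p = 0.31). Between days it differed by -1.13 in siControl (adjusted p = 0.10) and by 0.03 in siBach1 cells. The siControl value ran from -1.68 (adjusted p = 0.018, without siControl day 2 replicate 1) to -0.45 (without siControl day 2 replicate 3) when 1 array was left out, and was 0.04 with normexp. The probe was tested only through the siControl day 0 arrays, where it was highest, so its differences from that condition are a description.

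Pmepa1, a membrane protein induced by TGF-beta that keeps Smad2 and Smad3 from the receptor, rose with differentiation and rose to a lower level in siBach1 cells. Its probe A_66_P123218 read 4.70, 4.69 and 4.86 in siControl and 4.49, 4.44 and 4.99 in siBach1 cells at day 0. At day 2 it read 6.21, 5.83 and 6.16 in siControl and 5.55, 5.34 and 5.50 in siBach1 cells. The siRNAs overlapped at day 0, where siBach1 replicate 3 was the highest array, and at day 2 they were apart, with siBach1 lower. It rose by 1.32 in siControl (2.49-fold, adjusted p = 4.4e-05) and by 0.82 in siBach1 cells (1.77-fold, adjusted p = 0.001). The day 2 silencing change was -0.60 (SE 0.16, 95% interval -0.95 to -0.26, adjusted p = 0.032), and the day 0 difference -0.11 (-0.46 to 0.23, adjusted p = 0.68). The difference between the 2 silencing effects, -0.49 (SE 0.22), was not called (adjusted p = 0.23).

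This day 2 call was close to the threshold. It was lost without siControl day 2 replicate 1 (-0.53, adjusted p = 0.11), siControl day 2 replicate 3 (-0.56, adjusted p = 0.091) or siBach1 day 2 replicates 1 (-0.65, adjusted p = 0.069), 2 (-0.54, adjusted p = 0.099) or 3 (-0.62, adjusted p = 0.07), and with quantile normalization (-0.45, adjusted p = 0.063). Within the slides the difference was -0.57 on the first and -0.66 on the second. The myotube markers moved with the same comparison: 4 of 7 were called lower in siBach1 cells at day 2, against 6.26% of all tested probes. The summed signal of the 7 was 1100.0 to 1170.0 in siControl and 686.0 to 823.0 in siBach1 cells. Fibroblast markers were mixed, with 1 of 4 tested lower, 1 higher, and a median change of -0.04, beside -0.59 for the myotube markers. Their summed signal was 3.81 to 4.03 in siControl against 2.72 to 2.88 in siBach1 cells. The part of the myotube and fibroblast markers in the day 2 results for Pmepa1 and Tgfbr1 was not tested.

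Skil, which encodes SnoN, a repressor of Smad complexes, rose between days in siControl cells on each of its 3 probes. The brightest, A_55_P2904840, read 1.70, 1.73 and 1.96 in siControl and 1.97, 1.79 and 2.10 in siBach1 at day 0, and 2.40, 2.28 and 2.38 against 2.52, 2.22 and 2.36 at day 2. The days were apart under both siRNAs, and the siRNAs overlapped on both days. It rose by 0.56 in siControl (1.47-fold, adjusted p = 0.0019) and by 0.41 in siBach1 cells (1.33-fold, adjusted p = 0.01). The other 2 probes were dimmer. A_55_P2609049 rose by 0.66 in siControl (adjusted p = 0.0074), with a difference of 0.30 in siBach1 cells (-0.08 to 0.68), and A_55_P2934297 rose by 0.94 in siControl (adjusted p = 0.0074), with 0.41 in siBach1 cells (-0.13 to 0.94). The siControl rise of A_55_P2934297 was 0.60 with normexp.

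On these 2 Skil probes the day effect in siBach1 cells was not called, but the test between the siRNAs was not passed either, at -0.36 (-0.90 to 0.18) and -0.53 (-1.29 to 0.23). Silencing differences over the 3 probes were 0.16 to 0.43 at day 0 and -0.10 to 0.02 at day 2. The largest of them, 0.43 on A_55_P2934297, had a 95% interval of -0.11 to 0.96, and became 0.71 with an adjusted p of 0.039 without siControl day 0 replicate 3. That array read -1.61 against -2.33 and -2.59 for the other 2.

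Tgfbi, a matrix protein named for its induction by TGF-beta, was near the detection limit at day 0. Its probe A_51_P212754 was well above background on 1 of 3 arrays of each siRNA at day 0 and on all arrays at day 2. It read -4.02, -4.93 and -4.35 in siControl and -4.88, -4.13 and -4.31 in siBach1 at day 0, and -2.71, -1.87 and -2.54 against -2.32, -1.97 and -2.55 at day 2. The days were apart and the siRNAs overlapped. The day 2 mean was 2.06 above the day 0 mean in siControl and 2.16 in siBach1 cells, and 1.03 and 0.83 with a normexp background correction, which adds an offset to dim signals. These are given as a description, since the probe was tested only because of its day 2 arrays and most of its day 0 values were not well above background, so that the size of the difference is not fixed by these arrays. Silencing differences were -0.01 at day 0 (95% interval -0.67 to 0.65) and 0.10 at day 2 (-0.56 to 0.76).

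**Figure D3:**
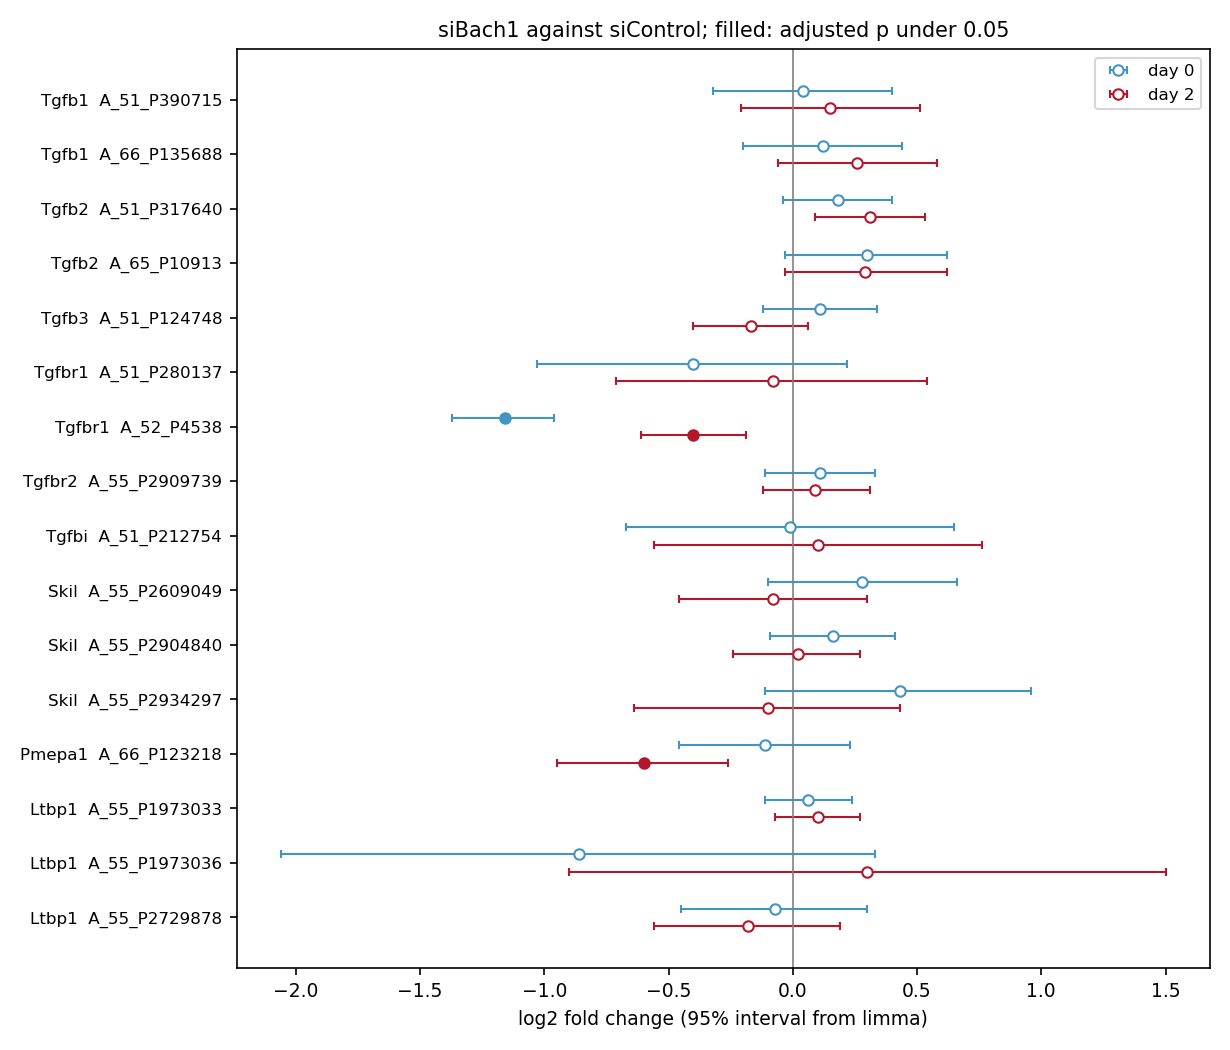
Log2 fold change of siBach1 against siControl (x axis, with the 95% interval from limma) for the 16 tested probes at day 0 and day 2, filled where called. Tgfbr1 A_52_P4538 is lower on both days and Pmepa1 lower at day 2, and of the other intervals all include 0 but that of Tgfb2 A_51_P317640 at day 2.

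**Figure D4:**
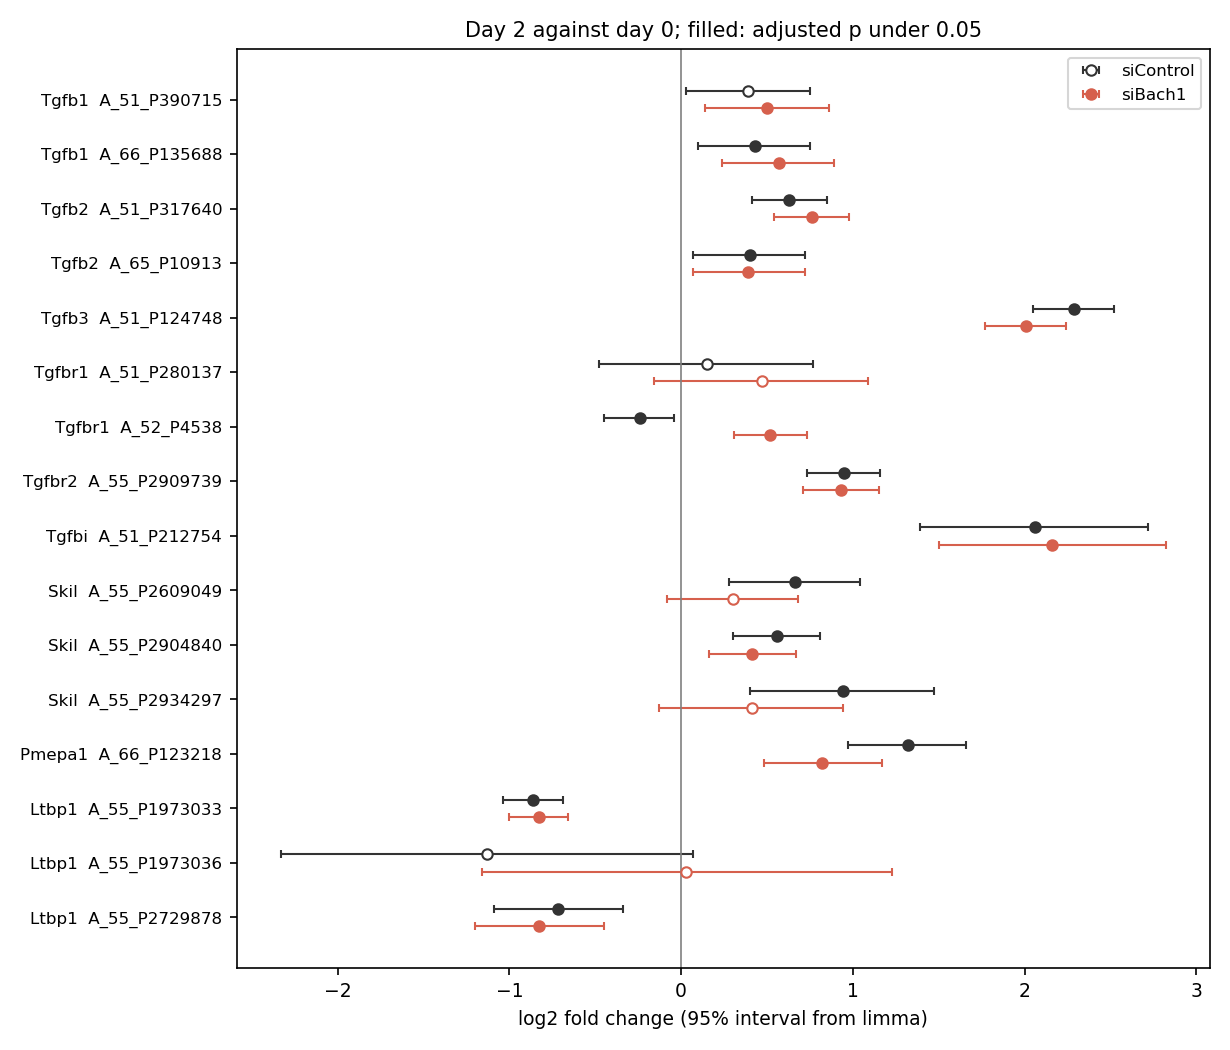
Log2 fold change of day 2 against day 0 (x axis, with the 95% interval from limma) for the same 16 probes in siControl and siBach1 cells, filled where called. Tgfb3 and Tgfbi lie furthest to the right, 2 of the 3 Ltbp1 probes lie to the left in both siRNAs while A_55_P1973036 does so in siControl alone, and Tgfbr1 A_52_P4538 lies on opposite sides of 0 in the 2 siRNAs.

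The day effects stood beside large changes of marker genes. All 7 myotube markers rose in both siRNAs, beside 24.6% of all tested probes in siControl and 23.8% in siBach1 cells. All 4 tested fibroblast markers were higher at day 2 as well, with a summed signal of 0.36 to 0.474 at day 0. Of these, Dpt and Lum were above background on no day 0 array and on all day 2 arrays. They were tested only through the day where they were high, so their rise is a description. Thy1 and Col15a1 were not tested. Of the adipocyte, osteoblast, macrophage and endothelial lists, 1 of 3, 2 of 4, 1 of 4 and 0 of 1 tested genes rose in siControl cells, and 2 macrophage genes fell. The part of these in the day effects above was not tested.

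Around the 9 genes, 78 other genes of the pathway were followed in 5 lists, 1 probe per gene, of which 74 were tested. Silencing raised 8 and lowered 9 of the 74 at day 0, and raised 8 and lowered 5 at day 2, beside 8.8% higher and 8.32% lower of all tested probes at day 0 and 5.75% and 6.26% at day 2. The median of the 74 was 0.06 at day 0 and -0.07 at day 2, against 0.09 and -0.01 for all tested probes. The difference between days was called for 7 of them, 2 higher and 5 lower, beside 2.39% and 2.2% of all tested probes.

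Among genes of latency and activation, 3 of 14 were higher and none lower at day 0, and 3 were higher and 2 lower at day 2. Thbs1, whose product thrombospondin releases latent TGF-beta, was 1.87-fold higher in siBach1 cells at day 0 (adjusted p = 0.0034), and Itgb8, an integrin subunit that activates it, was 1.85-fold higher at day 0 (adjusted p = 0.0024) and 2.02-fold higher at day 2 (adjusted p = 0.0023). Lrrc32, which displays the latent complex on the cell surface, was 2.21-fold higher at day 2 (adjusted p = 0.0051). It was called at day 0 as well (1.65-fold higher, adjusted p = 0.029), and its difference between days was not called (0.43, adjusted p = 0.42). Itgb6, another activating integrin subunit, and the latency protein Ltbp4 were lower at day 2, with log2 changes of -1.01 (adjusted p = 0.014) and -0.71 (adjusted p = 0.0015). Of these calls at day 2, that of Itgb6 was lost without siControl day 2 replicate 1. The difference of Ltbp4 between days, -0.62 (adjusted p = 0.029), was lost in 7 of the 12 fits without 1 array. By the methods' t-test after adjustment the day 2 calls of Itgb6, Itgb8 and Lrrc32 were lost. Those of Itgb6 and Lrrc32 were also lost on slide 1 alone, and that of Itgb6 with no filter on dim probes. The other tested probe of Itgb8 was not called at day 0 (0.91, adjusted p = 0.11) or day 2 (1.13, adjusted p = 0.069), nor was that of Itgb6 (-0.96, adjusted p = 0.16). The other Thbs1 probe was called (1.23, adjusted p = 0.0028). For Ltbp4 at day 2, A_55_P2033500 was called (-0.74, adjusted p = 0.0029) and A_55_P2033507 was not (-0.53, adjusted p = 0.19).

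Of the 5 co-receptors and related receptors none was called at day 0, and Tgfbr3, the co-receptor betaglycan, was 1.79-fold higher at day 2 (adjusted p = 0.013). Of the 8 Smad effectors and partners 1 was called on each day. Sp1, a transcription factor that works with Smads, was lower at day 0 (-0.48, SE 0.07, adjusted p = 0.0011), and Smad3, the mediator phosphorylated by Tgfbr1, was higher at day 2 (0.35, SE 0.10, 1.28-fold, adjusted p = 0.045). The Smad3 call was lost in 8 of the 12 fits that left out 1 array, and its value stayed between 0.25 and 0.46 under all alternatives. The other tested Smad3 probe, A_52_P352277, was not called at day 2 (0.26, adjusted p = 0.15).

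Of the 16 genes in the list of inhibitors and feedback, 3 were higher and 1 lower at day 0, and 2 higher and 1 lower at day 2. The list also holds modulators that are not inhibitors, such as Usp15, so these are not counts of inhibitors. Sik1, a kinase that promotes loss of Tgfbr1 protein, was 1.86-fold higher at day 0 (adjusted p = 0.0011), and the difference between days was -0.91 (adjusted p = 0.023). Nedd4l, a ubiquitin ligase for activated Smad2 and Smad3, was 1.47-fold higher at day 0 (adjusted p = 0.0025) and 1.37-fold higher at day 2 (adjusted p = 0.012). The Smad corepressor Tgif2 was lower at day 0 (-0.49, adjusted p = 0.039), and Tgif1 was lower at day 2 (-0.37, adjusted p = 0.027). Usp15, a deubiquitinase of the receptor complex, was 1.24-fold higher at day 2 on its brightest probe, with an adjusted p just under the threshold, while none of its 7 other tested probes was called and their differences ran from -0.44 to 0.68. Of the other tested probes, 1 of 3 for Tgif2 (-0.52, adjusted p = 0.042) and 1 of 2 for Tgif1 (-0.36, adjusted p = 0.027) were called, the others of these genes were not, and neither of the 2 others for Nedd4l was called on either day. The calls of Tgif2, Usp15, Tgif1 and of the Sik1 difference were lost in 8, 10, 4 and 5 of the 12 fits without 1 array.

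Among 31 tested response genes, 2 were higher and 7 lower at day 0. Igfbp3, an insulin-like growth factor binding protein, was 2.69-fold higher in siBach1 cells (adjusted p = 0.00023), and Cdh2, the adhesion protein N-cadherin, was 1.76-fold higher (adjusted p = 0.0043). Ctgf, a matricellular protein, changed by -1.49 (SE 0.32, adjusted p = 0.011), and Tnc, the matrix protein tenascin C, changed by -1.15 (SE 0.24, adjusted p = 0.0086).

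At day 2, 1 response gene was higher and 2 lower. Has2, a hyaluronan synthase, was 2.09-fold higher in siBach1 cells (adjusted p = 0.0092). Klf10, an early response gene, and Sphk1, a sphingosine kinase, changed by -0.56 (adjusted p = 0.002) and -0.50 (adjusted p = 0.0086). The difference between days was -1.81 for Igfbp3 (SE 0.22, adjusted p = 0.0052), -0.90 for Cdh2 (adjusted p = 0.04), 0.80 for Timp3, an inhibitor of metalloproteinases (adjusted p = 0.039), and 0.67 for Snai2, a repressor of epithelial genes (adjusted p = 0.042). Of these differences that of Igfbp3 was called in all 12 fits without 1 array, and those of Cdh2, Timp3 and Snai2 were lost in 10, 11 and 11. The positive differences of Timp3 and Snai2 stand for a smaller gap below siControl at day 2, not for a rise above it. Mean Timp3 was 5.18 in siControl and 4.20 in siBach1 at day 0, and 4.67 and 4.49 at day 2. Mean Snai2 was 2.95 and 1.97 at day 0, and 3.20 and 2.90 at day 2.

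**Figure D5:**
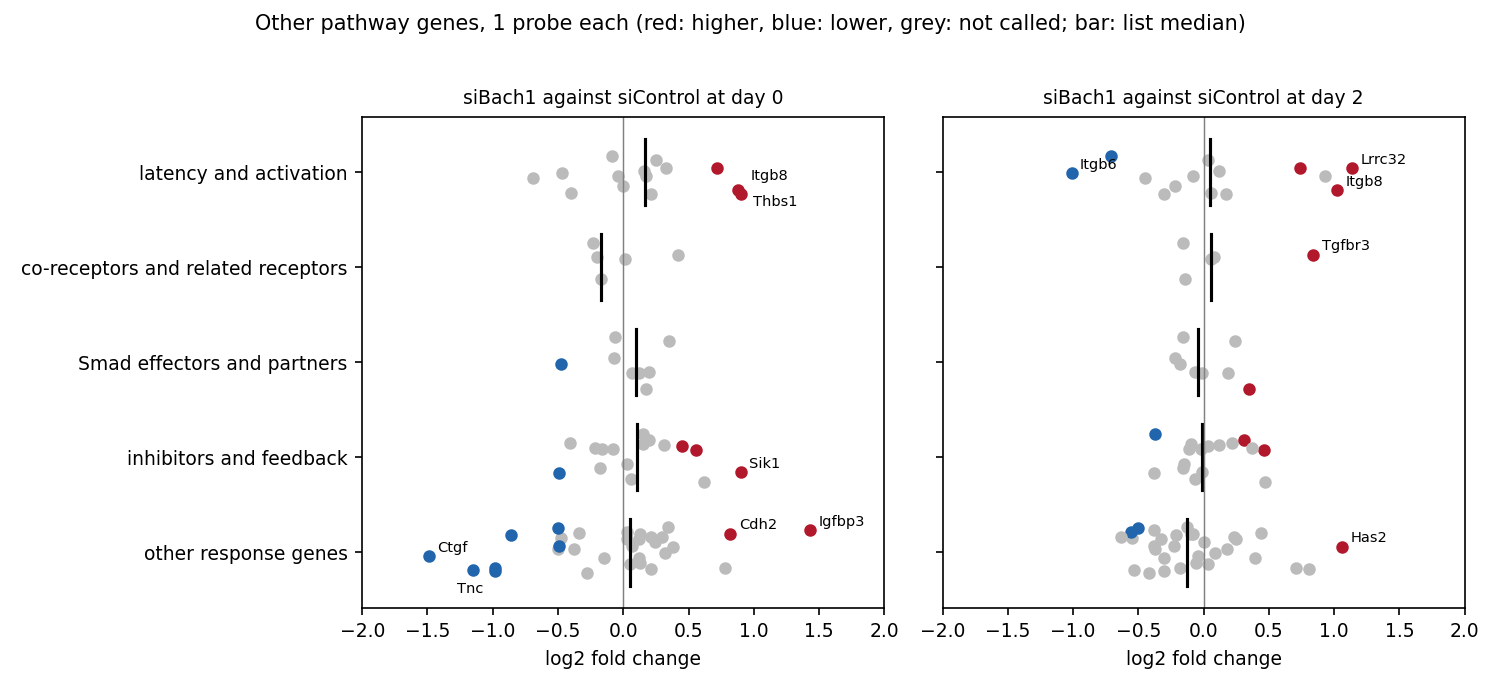
Log2 fold change of siBach1 against siControl (x axis) for the 74 other pathway genes, 1 point per gene in 5 lists, at day 0 (left) and day 2 (right). Red and blue points are called, names mark those of the called genes described in the text for that day that lie 0.8 or more from 0, and the black bar is the list's median. The bars stay within 0.2 of 0, and Igfbp3 and Ctgf stand furthest out at day 0.

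The genes whose pattern over the 12 arrays was most like that of each member were found by the root mean square difference of log2 values, each probe centred on its own mean. Oxa1l (0.10) was among the nearest to Tgfbr1, where the spread of Tgfbr1 itself was 0.45. For Pmepa1 the nearest were Traf4 (0.135) and Scx (0.138), against 0.60. P2rx5 (0.116) and Cdh13 (0.118) came closest to Tgfb3, against 1.08, Kif1b (0.067) and Dpp8 (0.069) to Tgfbr2, and Gtpbp4 (0.064) and Gle1 (0.069) to Ltbp1. Tgfb1 was nearest to Trp53bp1 (0.08) and Eme2 (0.093), Tgfb2 to Lactb (0.097) and Klhl26 (0.103), and Skil to Fam65a (0.069) and 4931406P16Rik (0.072). The dim Tgfbi probe had the widest distances, 0.178 to Acox2 and 0.279 to Fam13c, against its own 1.11.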

How the data were processed

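RNA of C2C12 cells was hybridised to 12 one-colour Agilent mouse arrays, 3 per condition. The authors deposited each array's scanner output from Agilent Feature Extraction 10.7.3.1 (per the file headers), which gives each spot an intensity with the background taken off, and a table of 56745 probes with normalized log2 values. These log2 values that the authors deposited equal log2 of the processed signal minus the array's 75th percentile and the probe's median, with a median absolute difference of 0.000964. Here the scanner intensities were used: control spots and the 76 to 110 outlier spots per array were dropped, no spot was saturated, spots of a probe were averaged as log2, and the array's 75th percentile was subtracted. The 75th percentile signal was 325.5 to 534.4. Samples were grouped by their labels.

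All comparisons came from 1 fit in limma 3.58.1 (R 4.3.3) of the 4 conditions with no block, over 29664 probes, with Benjamini-Hochberg adjustment. Tables were made in Python 3.11 (pandas 2.3.3, numpy 2.4.6). The fit was tested on simulated data with independent noise on each array, which cannot show how it behaves when replicates are correlated. Same-numbered arrays of different conditions had residual correlations of 0.142 to 0.595 in all 18 pairs, above the limit of 0.1. The 36 pairs with different numbers ran from -0.443 to 0.265, so some of them passed the limit and the ranges overlap. By that limit, replicate numbers were taken to pair the samples and entered as a block in an alternative. Same-numbered arrays also share a slide and a row, and replicates 1 and 2 lie on 1 slide and replicate 3 on the other. Each condition has its own slide column, so position and condition cannot be told apart.

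Of other pathway genes, the text names for each list and each silencing comparison and the difference between days up to 2 called genes in each direction, by size of change on the gene's brightest tested probe. The members, the 5 pathway lists, the 7 marker lists and the tests were chosen with earlier results of these data known. The alternatives were quantile normalization, normexp (offset 50), the normalized values of the authors, dropping the filter or requiring all 12 arrays, blocks for replicate or slide, fits to the 6 arrays compared, a robust prior with a trend, the methods' t-test, a fold change of at least 2, each array left out in turn and, chosen after seeing the data, only the arrays of slide 1. No gene coordinates of the array's build are given, since the file headers name an older build than the reference. Some genes are not reported here by name.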

Additional observations from a re-analysis of the deposited data

Results flagged for a closer look

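The silencing effect on Tgfbr1 (A_52_P4538) differed between the days by 0.77 on the log2 scale (SE 0.13, adjusted p = 0.015), and it was singled out because the test of that difference passed the threshold. The change was -1.16 at day 0 and -0.40 at day 2, and between days the probe fell in siControl and rose in siBach1 cells in all 3 replicate pairs of each. The difference was 0.69 to 0.83 over the 12 fits that left out 1 array, with adjusted p from 0.022 to 0.042. The call was lost with no filter on dim probes (0.77, adjusted p = 0.10) and with slide 1 alone (0.68, adjusted p = 0.086). The second tested probe gave 0.32 (95% interval -0.57 to 1.2). With 3 arrays per condition, single arrays that stand apart were not tested.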

How the results depend on the processing

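Of 1857 values of the 16 tested probes under the alternatives, 1764 kept their side of the threshold, 77 lost a call, 16 gained one and no called value changed direction, while 57 values that were not called changed sign. Of the 80 results, 62 kept their side throughout. The other pathway probes counted below are all 137 tested probes of the 5 lists, not 1 probe for each of the 74 genes. With replicate number as a block, Tgfb1 A_51_P390715 gained a call between days in siControl (adjusted p = 0.0053) and Tgfb2 A_51_P317640 a call for silencing at day 2 (adjusted p = 0.01), the calls of other pathway probes went from 18 to 29 for silencing at day 2 and from 9 to 22 for the difference between days (21 with slide as a block), and the pairing moved no other count by over 1.5 times. At day 0, the 1 probe called for silencing became 2 by the methods' t-test unadjusted and 1 to 2 when an array was left out. At day 2 the 2 called became 0 with no filter on dim probes, with only the arrays of the comparison, by the methods' t-test with adjusted p and at a fold change of at least 2, 1 with only slide 1, and 0 to 2 with an array left out, where limma's unadjusted p on all arrays was under 0.05 for 3 probes and the t-test's for 3. At that fold change 3 of 13 probes stayed called between days in siControl, 2 of 12 in siBach1 cells and 0 of 1 for the difference between days, which was also 0 with no filter and with slide 1 alone (limma's unadjusted p on all arrays was under 0.05 for 2). Of the 137 other pathway probes, silencing at day 0 called 26, beside 17.1% of all tested probes. It called 17 with no filter, 15 by the adjusted t-test and 7 at 2-fold. At day 2 it called 18, beside 12% of all, and 6 with no filter, 9 with only the arrays of the comparison and 5 at 2-fold. The t-test without and with adjustment called 37 and 5 at day 2, and fits with an array left out 10 to 18. Between days 88 and 81 were called in siControl and siBach1 cells, beside 53.4% and 56.1% of all, and 41 in each at 2-fold. The difference between days called 9, beside 4.59% of all. It called 1 with no filter, 1 with slide 1, 2 at 2-fold and 2 to 8 with an array left out. At 2-fold, 2.79% and 2.17% of all tested probes were called for silencing at day 0 and day 2. These shares were 20% and 20.5% between days and 1.44% for the difference. Of the 28 other results picked by size of change for pathway genes and the 2 for Bach1, 11 were called under every alternative and none changed direction. Beyond those whose construction uses fewer probes or arrays, the cause of these moves was not tested. Dim signal limits Tgfbi at day 0, Tgfbr1 A_51_P280137 and Ltbp1 A_55_P1973036.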

Other observations

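Between day 0 and day 2 the other pathway genes moved in both directions: of 74 tested, 31 rose and 18 fell in siControl and 27 rose and 18 fell in siBach1 cells, beside 24.6% and 28.7% of all tested probes in siControl and 23.8% and 32.3% in siBach1 cells. Of the genes of latency and activation 11 of 14 were higher and 0 lower in siControl and 9 higher and 1 lower in siBach1 cells, with a list median of 1.18 and 1.22. The genes named in this section were chosen after their values were seen. Dcn, a matrix proteoglycan that binds TGF-beta, rose by 5.23 (SE 0.23, adjusted p = 6.7e-08) in siControl and by 5.46 (adjusted p = 5.8e-08) in siBach1 cells, and Lrrc32 rose by 2.77 (adjusted p = 1.3e-06) and 3.20 (adjusted p = 5.3e-07). Dcn is also a gene of fibroblasts. The 4 tested fibroblast markers rose over the same days, Dpt and Lum among them tested only through day 2, and their part was not tested.

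Among response genes, Fst, which encodes follistatin, an antagonist of activin and myostatin, rose by 4.03 (SE 0.23, adjusted p = 3.5e-07) in siControl and by 4.16 (adjusted p = 3e-07) in siBach1 cells, and Postn, the matrix protein periostin, by 1.33 (adjusted p = 7.5e-05) and 1.90 (adjusted p = 6.2e-06). Id1, Id2 and Id3, which encode inhibitors of myogenic factors and also respond to BMP, changed by -1.73, -2.53 and -2.71 in siControl and by -2.20, -3.47 and -2.69 in siBach1 cells, each with an adjusted p of 6.1e-06 or less. The inhibitory Smad7 changed by -1.02 in siControl (adjusted p = 0.0018) and -0.39 in siBach1 cells (adjusted p = 0.13), with a difference of 0.63 that was not called (adjusted p = 0.25).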
